A study of Mus musculus with 14 samples.

Results

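The genes described here encode inhibitors of NF-κB signalling: the classical IκB proteins (*Nfkbia*, *Nfkbib* and *Nfkbie*, for IκBα, IκBβ and IκBε), the atypical IκB proteins (*Bcl3* and *Nfkbiz*), A20 (*Tnfaip3*) and the A20-binding protein ABIN-1 (*Tnip1*). They were taken by name from the array annotation, as 7 of 27962 gene names, with 1 probe each of 41174 probes other than controls. All 7 passed the filter on dim probes, which kept 22166 probes (a probe had to be well above background on all the arrays of 1 or more groups). Each of the 98 values of these probes on the 14 arrays was well above background, and 0 were saturated.

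All cells were *p65*(-/-) mouse embryonic fibroblasts (MEFs), which lack the RelA subunit of NF-κB and had been infected with a lentiviral vector. The vector carried wild type p65 (wt), the double mutant K314/315R, the triple mutant KTR (K310/314/315R) or no p65 (pTV), so that pTV cells share the knockout and the infection with the other lines. The mutants replace lysines that p300 acetylates with arginines. Each line was a selected pool of infected cells and not a clone. Cells were starved overnight and then given 30 ng/ml TNFα for 3 h, and wt cells were also measured untreated (0 h). There were 3 arrays for wt at 3 h, KTR, pTV and wt at 0 h, and 2 for K314/315R. Because KTR, K314/315R and pTV cells had no array at 0 h, induction by TNFα was measured in wt cells only.

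In resting cells IκB proteins bind NF-κB dimers and keep them out of the nucleus. TNFα activates the IκB kinase, which marks the classical IκB proteins for degradation, and the released NF-κB then transcribes several of its own inhibitors. IκBα is known as the fast arm of this negative feedback and IκBε as a slower one, whereas IκBβ is the more stable form. Bcl-3 and IκBζ (*Nfkbiz*) act in the nucleus as cofactors of p50 or p52 and can raise or lower transcription. A20 is a ubiquitin-editing enzyme that shuts down signalling upstream of the IκB kinase, and ABIN-1 recruits it to ubiquitin chains.

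Promoters of 6 of the 7 genes (all but *Nfkbiz*) were found in the RefSeq table for GRCm38.p6, each as a window of 250 bases before to 50 bases after an annotated start. On either strand, a match to the 10-base NF-κB consensus (the κB motif) was searched. At least 1 match was present for 5 of these 6 genes, and for 5.14% of 27025 gene symbols in the same table (4.51% of 32851 windows). The match of *Nfkbie* lay at −106 to −97 from the start, that of *Nfkbia* at −29 to −20 and that of *Bcl3* at +3 to +12. *Tnip1* held 4 overlapping matches, which read the same on both strands, at −58 to −47. *Tnfaip3* held 1 match at −125 to −116 and another at −12 to −3 of its first listed start, and 0 at its second. In the *Nfkbib* window (chr7:28766595-28766894, minus strand) there were 0 matches to these letters. A match is only a description of the sequence. The stretches with a match are shown because they belong to genes whose signal differed between p65 and pTV cells, read 5′ to 3′ along the gene's strand, with the matches in capitals. They cover chr12:55492648-55492787 (minus strand), chr17:45555560-45555699 (plus strand), chr7:19822734-19822763 (minus), chr10:19015411-19015550 (minus) and chr11:54962957-54963080 (minus).
Nfkbia: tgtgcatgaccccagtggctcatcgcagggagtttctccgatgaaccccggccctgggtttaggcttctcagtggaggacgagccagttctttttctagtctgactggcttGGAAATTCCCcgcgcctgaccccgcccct
Nfkbie: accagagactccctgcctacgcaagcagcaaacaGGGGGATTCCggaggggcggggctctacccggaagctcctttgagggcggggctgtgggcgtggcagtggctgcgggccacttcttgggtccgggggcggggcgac
Bcl3: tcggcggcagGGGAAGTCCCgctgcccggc
Tnfaip3: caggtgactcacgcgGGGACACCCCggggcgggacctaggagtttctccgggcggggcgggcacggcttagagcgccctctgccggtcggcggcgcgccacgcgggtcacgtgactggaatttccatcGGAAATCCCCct
Tnip1: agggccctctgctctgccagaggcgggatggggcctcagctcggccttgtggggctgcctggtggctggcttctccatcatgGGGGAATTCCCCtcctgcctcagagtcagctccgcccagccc

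**Figure D1:**
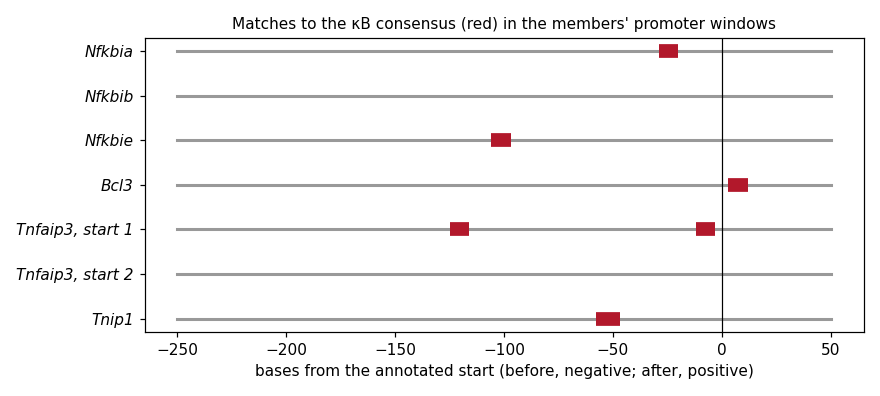
Position of matches to the κB motif (red) in the promoter windows of 6 genes (grey lines, 250 bases before to 50 after each annotated start, x axis in bases from the start). Windows of *Nfkbia*, *Nfkbie*, *Bcl3*, *Tnip1* and the first start of *Tnfaip3* hold matches, and those of *Nfkbib* and the second start of *Tnfaip3* hold 0.

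Across the 14 arrays, the 75th percentile of the corrected intensity was 967 to 1442, and 49.9% to 57.7% of probes were well above background. Of 8 fibroblast markers, 7 were so on all arrays, as against 0 of 5 leukocyte markers, 1 of 4 epithelial markers (*Krt8*) and 0 of 3 endothelial markers, the last on no array. The remaining fibroblast marker, *Pdgfrb*, was so on 13 arrays, and so was the leukocyte marker *Csf1r*. The leukocyte marker *Cd68* was well above background on 6 arrays and the epithelial *Krt18* on 5, so leukocyte and epithelial markers were not absent. Slides 1 to 3 each held 1 array of wt at 3 h, KTR, pTV and wt at 0 h, each group always in the same position, so position and group cannot be told apart. Both K314/315R arrays lay on slide 4, so slide and line cannot be told apart for them. The brighter probe of *Rela*, the gene of p65, differed by 0.35 on the log2 scale between wt and pTV (limma, adjusted p = 0.213), and the dimmer by 0.61 (adjusted p = 0.0218). The sources used here do not say where in the transcript either probe lies, so they do not check the labels. In such bulk samples, fewer cells of a kind and less RNA per cell cannot be told apart.

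Signals are given as log2 of the intensity relative to the 75th percentile of the array, so that 1 unit is a doubling, and as mean ± SD over arrays. Levels of different genes are not compared, because each has its own probe. A difference was called at an adjusted p under 0.05 and a fold over 1.8, or over 2 for comparisons with pTV, in a single limma fit of all 14 arrays.

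TNFα raised *Tnfaip3*, *Nfkbie*, *Nfkbib* and *Tnip1* more than 1.8-fold in wt cells, where 1.12% of the 22166 tested probes were called higher. *Nfkbia* and *Bcl3* rose by less than that limit, and *Nfkbiz* did not pass the test. By the adjusted p alone, 6 of the 7 genes were higher after TNFα, against 2.71% of all tested probes. The median log2 fold change was 1.13 over the 7 genes and −0.04 over all tested probes.

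*Tnfaip3* had the largest TNFα response of the 7. Its log2 signal was 2.37, 2.35 and 2.26 on the wt arrays at 0 h, and 4.45, 4.12 and 4.24 at 3 h. Every array at 3 h lay above every array at 0 h, and the fold was 3.83 (log2 fold change 1.94, 95% CI 1.63 to 2.24, adjusted p = 1.67e-05). *Nfkbie* went from 2.43, 2.47 and 2.58 at 0 h to 3.90, 4.02 and 3.95 at 3 h. Its values did not overlap either, at a fold of 2.77 (95% CI 1.99 to 3.85, adjusted p = 0.00231).

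*Nfkbib* had 1.64, 1.57 and 1.67 at 0 h and 2.84, 2.76 and 2.73 at 3 h, a fold of 2.22 (adjusted p = 2.81e-05). For *Tnip1* the signal was 3.82, 3.86 and 3.89 at 0 h and 4.99, 5.01 and 4.96 at 3 h, a fold of 2.19 (adjusted p = 8.23e-05). Within slides 1 to 3 the log2 difference was 1.07 to 1.19 for *Nfkbib* and 1.07 to 1.17 for *Tnip1*.

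*Nfkbia*, the best-known feedback gene of the pathway, was at 6.14, 6.33 and 6.14 before TNFα and at 6.97, 6.86 and 6.77 after it. All 3 arrays rose, but the fold was 1.58 (adjusted p = 0.00505) and below the limit. *Bcl3* was similar, at 2.78, 2.61 and 2.76 before and 3.35, 3.28 and 3.35 after, with a fold of 1.52 (adjusted p = 0.0166). *Nfkbiz* overlapped between the times, with 1.67, 1.69 and 1.68 before and 1.99, 1.67 and 1.96 after, and a log2 difference of 0.20 (95% CI −0.13 to 0.52, adjusted p = 0.586). With another background correction (normexp), *Tnfaip3* was the only one of the 7 still called, and the adjusted p was 0.577 for *Nfkbie*, 0.373 for *Nfkbib* and 0.513 for *Tnip1*. Calls for TNFα over all tested probes, either way, fell from 343 to 23 with normexp, so the loss was not particular to these genes.

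**Figure D2:**
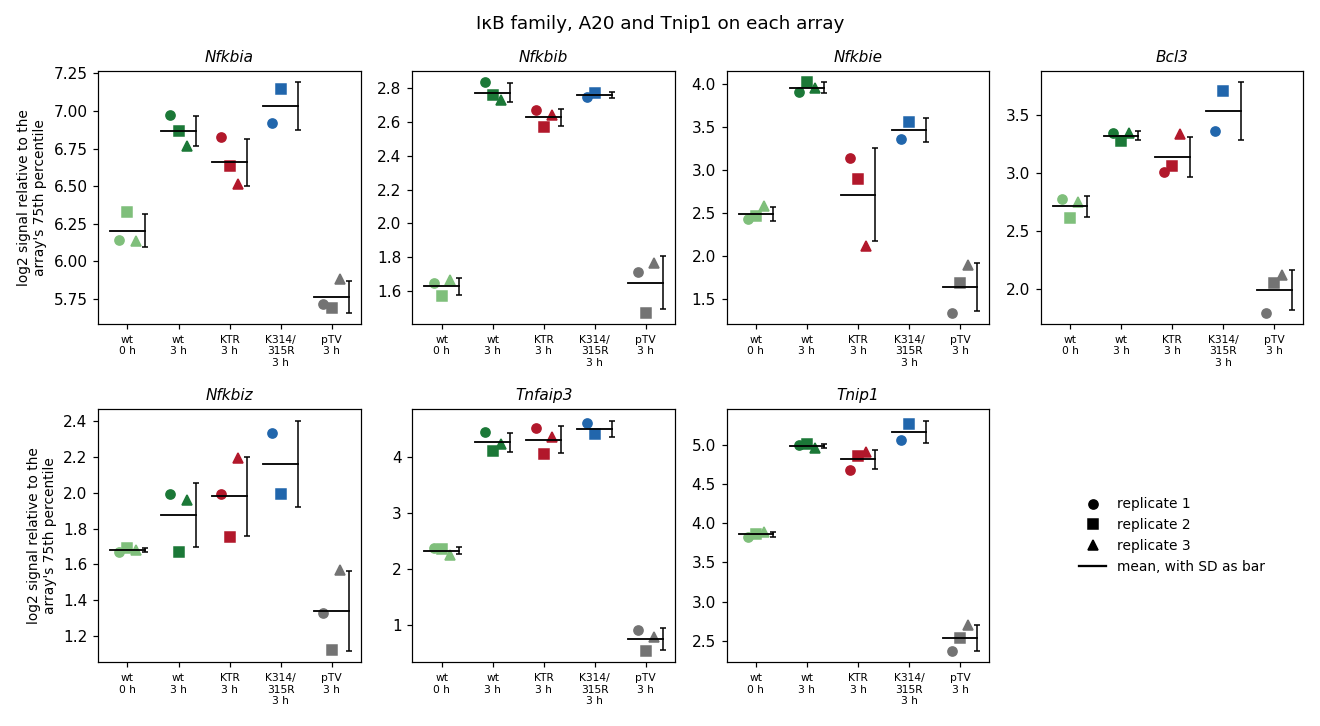
Log2 signal of the 7 genes on each array (y axis, relative to the array's 75th percentile, each panel with its own scale that does not start at 0) for wt at 0 h and the 4 lines at 3 h; symbols mark the replicate, lines the mean and bars the SD. The pTV arrays lie lowest except for *Nfkbib*, where they overlap wt at 0 h, and the KTR arrays of *Nfkbie* lie below the wt arrays at 3 h and are widely spread (2.11 to 3.13).

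At 3 h of TNFα, 6 of the 7 genes were more than 2-fold higher in wt than in pTV cells, where 3.59% of the tested probes were called higher. By the adjusted p alone all 7 were higher, against 8.03% of the tested probes. No wt array overlapped with a pTV array for any of the 7, but the share of all tested probes without such overlap was not counted. The median log2 fold change was 1.33, as against −0.03 over all tested probes. The A20 genes differed the most and the atypical *Nfkbiz* the least.

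In pTV cells *Tnfaip3* was at 0.92, 0.55 and 0.80, so that the wt level was 11.4-fold higher (95% CI 9.25 to 14.1, adjusted p = 1.17e-08). The pTV signal was thus 8.76% of that of wt at 3 h. *Tnip1* was at 2.37, 2.53 and 2.70 in pTV, 5.47-fold below wt (95% CI 4.69 to 6.39, adjusted p = 1.48e-08). *Nfkbie* was at 1.34, 1.69 and 1.89 in pTV, 4.98-fold below wt (95% CI 3.58 to 6.94, adjusted p = 1.28e-05).

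The other IκB genes differed less. *Bcl3* was at 1.8, 2.05 and 2.13 in pTV, and wt was 2.52-fold higher (adjusted p = 1.25e-05). *Nfkbib* was at 1.71, 1.47 and 1.76 in pTV, and wt was 2.18-fold higher (adjusted p = 3.32e-06). *Nfkbia* was still bright in pTV cells, at 5.72, 5.69 and 5.88, and wt was 2.15-fold higher (adjusted p = 2.19e-05).

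*Nfkbiz* was at 1.33, 1.12 and 1.57 in pTV, and the fold of 1.45 did not reach the limit (adjusted p = 0.0306). With the normexp correction, *Nfkbib* (adjusted p = 0.0781) and *Nfkbia* (adjusted p = 0.104) were no longer called.

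Untreated wt cells were also set against TNFα-treated pTV cells, a comparison in which line and treatment both differ. *Tnfaip3* was 2.98-fold (adjusted p = 8.34e-06) and *Tnip1* 2.50-fold (adjusted p = 2.83e-06) higher in the untreated wt cells, and these were the only calls among the 7, where 3.71% of the tested probes were called higher. By the adjusted p alone *Nfkbie*, *Bcl3* and *Nfkbia* were also higher, which makes 5 of 7 against 12.9% of all tested probes. *Nfkbib* overlapped between these groups, with a log2 difference of −0.02 (95% CI −0.22 to 0.17, adjusted p = 0.898). For *Nfkbiz* the difference was 0.34 (adjusted p = 0.125). So *Tnfaip3* stood at 26.1% and *Tnip1* at 45.7% of the wt level at 3 h without TNFα, and at 8.76% and 18.3% in pTV cells with it, whereas *Nfkbib* stood at 45.1% and 45.8%.

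The mutants ask whether the replaced lysines of p65 matter for these genes. In KTR cells, *Nfkbie* was lower than in wt cells and the other 6 genes were not called. Its log2 signal was 3.13, 2.89 and 2.11 in KTR against 3.90, 4.02 and 3.95 in wt. Every KTR array lay below every wt array, at 42.2% of the wt level (log2 fold change −1.24, 95% CI −1.72 to −0.77, adjusted p = 0.0465). This was 1 of 7 genes, where 0.14% of the tested probes were called lower. These were 31 probes, as against 96 without KTR replicate 1, 62 with the replicate block and 8 in the fit of only these groups. *Nfkbie* was already known from earlier results of these arrays, so its call is not independent evidence.

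The adjusted p of *Nfkbie* lay close to the threshold. Over 26 alternatives its log2 fold change ranged from −1.46 to −0.94 and the call was kept in 12 and lost in 14, with an adjusted p of 0.0125 to 0.65. The settings with the unadjusted p and with no fold limit are among those that kept it. They only loosen the rule on the same fit, so the call could not be lost there. With the replicate block the adjusted p was 0.0377, in a fit of only the wt and KTR arrays at 3 h it was 0.327, and with normexp 0.65. It was also lost without any 1 of the 3 wt arrays at 3 h (0.131 to 0.198), without KTR replicate 2 (0.0826), and without 1 of several arrays of other groups, which leaves its value as it is.

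Within slides, the log2 difference of *Nfkbie* between KTR and wt was −0.77, −1.12 and −1.84, the last with KTR replicate 3. On that array the brighter *Rela* probe was at 0.79, against 1.39 and 1.54 on the other KTR arrays and 1.52 to 1.54 in wt. The dimmer *Rela* probe went the other way, at −1.99 on that array against −2.26 and −2.16 on the other KTR arrays and −2.07 to −1.88 in wt. KTR replicate 3 also had the most outlier spots (326, against 1 to 212 on the others) and the lowest share of probes well above background (49.9%). Without KTR replicate 3 the log2 fold change of *Nfkbie* was −0.94 (adjusted p = 0.0401).

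The remaining genes were close to wt in KTR cells. *Nfkbia* was at 6.83, 6.63 and 6.51, *Nfkbib* at 2.67, 2.57 and 2.64, and *Tnip1* at 4.68, 4.86 and 4.91. All KTR arrays of *Nfkbib* and *Tnip1* lay below the wt arrays, but their log2 differences were −0.15 and −0.17 (adjusted p = 0.683 and 0.665). *Tnfaip3*, at 4.52, 4.06 and 4.36, and *Nfkbiz*, at 1.99, 1.75 and 2.19, overlapped with wt, as did *Bcl3* at 3.01, 3.07 and 3.34. The 95% intervals of these 6 genes lay between −0.46 and 0.43, and none reached a fold of 1.8. Under normexp, *Nfkbia*, *Nfkbib*, *Bcl3* and *Tnip1* were instead slightly higher in KTR.

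**Figure D3:**
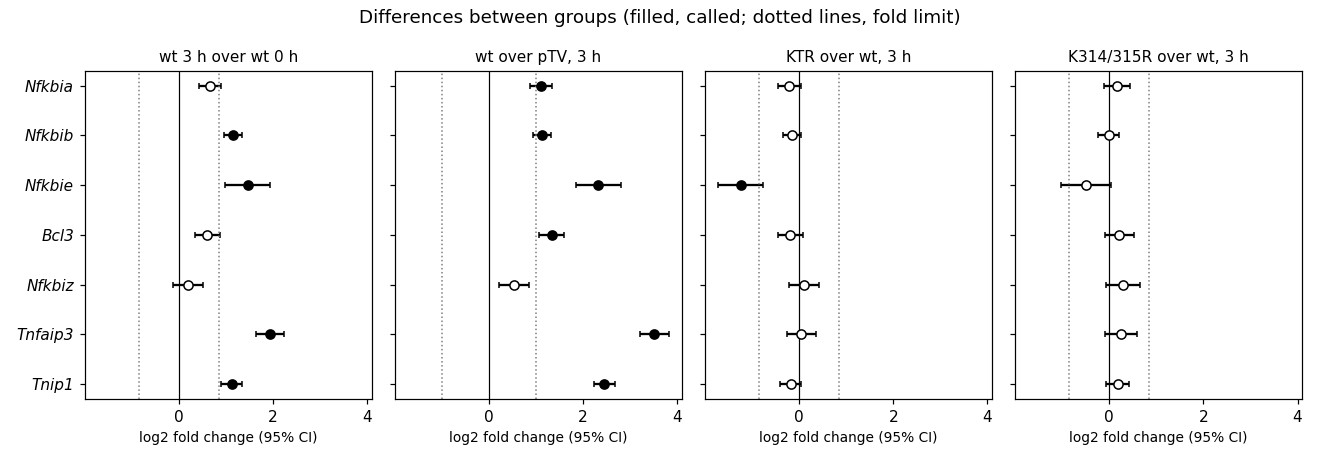
Log2 fold change (x axis) of the 7 genes in 4 comparisons, with the 95% confidence interval of the limma fit as bars. Filled points were called, and dotted lines mark the fold limit (2 for pTV, otherwise 1.8). In KTR over wt only *Nfkbie* lies beyond the limit (−1.24), and in K314/315R over wt 0 genes are called.

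In K314/315R cells limma called 0 of the 7 genes against wt (0 also at an unadjusted p under 0.05), where 1.2% of the tested probes were called either way and 17.4% passed the unadjusted p. The share called depended on the setting. It came from 37 probes higher and 228 lower, as against 4 and 25 without wt replicate 2 at 3 h, and 73 and 519 with the replicate block. *Nfkbie* had the lowest difference. Its K314/315R arrays were at 3.36 and 3.56, below all wt arrays and above all KTR arrays, at 70.9% of the wt level (log2 fold change −0.50, 95% CI −1.03 to 0.04, adjusted p = 0.329). This interval reaches past a fold of 1.8, so a decrease of that size is not excluded. The other 6 genes had log2 differences of −0.01 to 0.29, and their intervals lay between −0.23 and 0.65.

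*Bcl3* (3.36 and 3.71) and *Tnip1* (5.06 and 5.27) were above all wt arrays in K314/315R, by 0.21 (adjusted p = 0.475) and 0.18 (adjusted p = 0.467). *Nfkbia* was at 6.92 and 7.14, *Nfkbib* at 2.75 and 2.77, *Nfkbiz* at 2.33 and 1.99, and *Tnfaip3* at 4.61 and 4.41, all overlapping with wt. The slide of the K314/315R arrays cannot be told apart from the line in any of these values.

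Between the mutants, which differ in lysine 310, 0 of the 7 genes were called, against 2.55% of the tested probes called either way. That share also moved with the setting. It came from 457 probes higher and 109 lower, as against 0 and 0 in the fit of only the mutants, and 768 and 174 with the replicate block. All 7 had a lower mean in KTR, as did 46.1% of the tested probes. At an unadjusted p under 0.05, 4 were lower (*Nfkbie*, *Tnip1*, *Bcl3* and *Nfkbia*), as were 7.88% of the tested probes. *Nfkbie* had the largest difference (log2 fold change −0.75, 95% CI −1.28 to −0.21, adjusted p = 0.0992). Without KTR replicate 1 it was called (−0.96, adjusted p = 0.0379). A difference between the mutants in *Nfkbie* was thus not called with all arrays, although only KTR was called against wt.

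Against pTV, most of the 7 genes were called higher in both mutants. In KTR cells *Tnfaip3* was 11.8-fold, *Tnip1* 4.86-fold, *Bcl3* 2.21-fold and *Nfkbie* 2.10-fold higher than in pTV (adjusted p = 1.22e-08, 3.68e-08, 5.4e-05 and 0.0054). These were 4 of 7 genes, against 3.32% of the tested probes, and by the adjusted p alone it was 7 of 7 against 9.27%. *Nfkbib* (1.97-fold) and *Nfkbia* (1.86-fold) missed the fold limit. The KTR arrays of *Nfkbie* exceeded the pTV arrays of the same slide by 1.79, 1.21 and 0.22 on the log2 scale, the last with KTR replicate 3. Its call was lost without KTR replicate 1 (0.86), KTR replicate 2 (0.98) or pTV replicate 1 (0.92), each below a fold of 2, in the fit of only these groups (adjusted p = 0.0746), and with normexp (adjusted p = 0.592). *Nfkbib* was called without KTR replicate 2 (1.01), pTV replicate 1 (1.01) or pTV replicate 3 (1.04), and with normexp *Nfkbib* (adjusted p = 0.029) and *Nfkbia* (adjusted p = 0.0491) were.

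In K314/315R cells 6 of the 7 genes were called higher than in pTV, against 4.18% of the tested probes, and by the adjusted p alone 7 against 12.5%. *Tnfaip3* was 13.5-fold, *Tnip1* 6.19-fold, *Nfkbie* 3.54-fold, *Bcl3* 2.92-fold, *Nfkbia* 2.41-fold and *Nfkbib* 2.16-fold higher. *Nfkbiz*, at 1.77-fold, stayed under the limit (adjusted p = 0.00373). *Nfkbie* lost its call with normexp (adjusted p = 0.0569). These comparisons share the pTV arrays, and those with wt share the wt arrays, so they are not independent of each other.

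The order of the groups differed between the genes. For *Tnfaip3* and *Nfkbiz* the highest means were those of K314/315R, KTR and wt at 3 h, whose arrays overlapped from one to the next. For *Nfkbia*, *Bcl3* and *Tnip1* the order was K314/315R, wt at 3 h, KTR, wt at 0 h and pTV. There, neighbouring groups overlapped only for K314/315R and wt in *Nfkbia*, and for wt and KTR in *Nfkbia* and *Bcl3*. For *Nfkbie* the order was wt at 3 h, K314/315R, KTR, wt at 0 h and pTV, and only KTR and wt at 0 h overlapped. KTR cells after 3 h of TNFα thus stood at 42.2% and untreated wt cells at 36.2% of the wt level at 3 h for this gene. For *Nfkbib*, wt at 3 h and K314/315R overlapped at the top, and pTV and wt at 0 h at the bottom.

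To describe how *Nfkbie* moved apart from its family, its log2 signal was taken relative to the mean of the other 6 genes on the same array, which needs no scaling between arrays. The difference was −0.20, 0.07 and −0.05 in wt at 3 h. It was −0.82, −0.93 and −1.88 in KTR, −0.81 and −0.65 in K314/315R, −0.97, −0.55 and −0.58 in pTV, and −0.65, −0.60 and −0.49 in wt at 0 h. All 3 wt arrays at 3 h lay above the other 11 arrays.

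**Figure D4:**
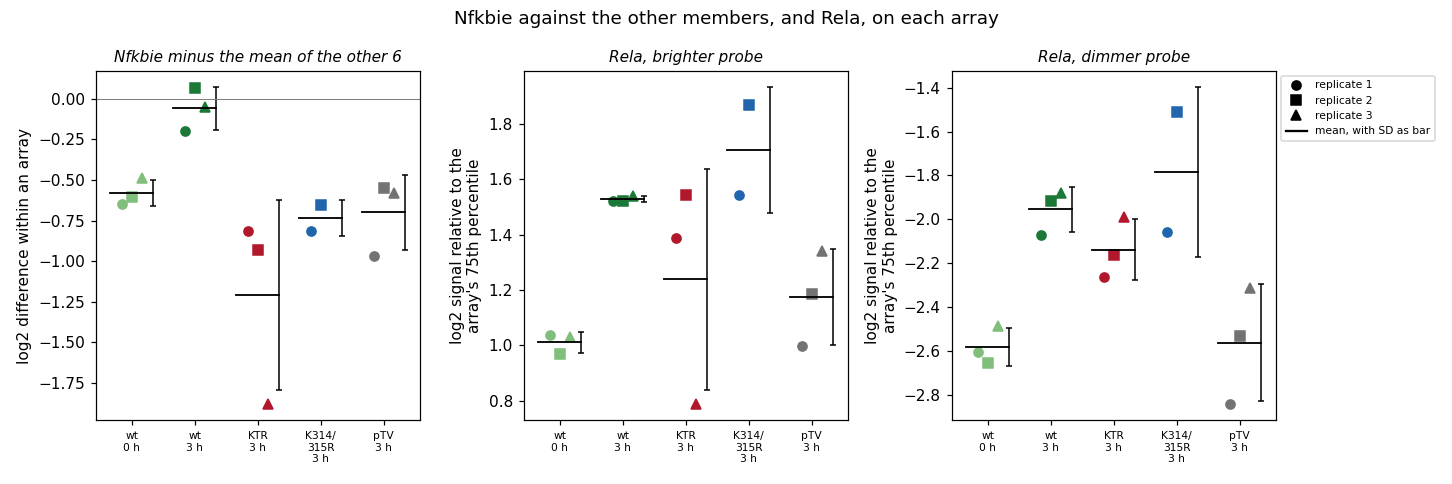
Left, log2 signal of *Nfkbie* minus the mean of the other 6 genes on the same array (y axis, log2 units); middle and right, log2 signal of the brighter and the dimmer *Rela* probe. Symbols mark the replicate, lines the mean and bars the SD. KTR replicate 3 is the lowest array in the left and middle panels (−1.88 and 0.79) but the highest KTR array in the right panel (−1.99), and wt at 3 h is the highest group in the left panel.

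Across the 14 arrays the signals of the 7 genes correlated with each other at Pearson's r of 0.61 (*Nfkbie* with *Nfkbiz*) to 0.98 (*Bcl3* with *Tnip1*), as a description only, since the arrays fall into 5 groups and share slides. Over the 18514 probes above background throughout, the gene names most like each gene were also listed. For *Tnfaip3* these were *Mt2* (r = 0.99), *Bid* and *Tnfaip2*, for *Tnip1* they were *Tnfaip2* (r = 0.99), *Jak2* and *Lincr*, and for *Bcl3* they were *Tnip1* (r = 0.98), *Rffl* and *Rab32*. *Nfkbib* was most like *Slc7a11* (r = 0.99), *Selp* and *Birc3*, and *Nfkbia* most like *Mt2* (r = 0.98), *Pde4b* and *Rnd1*. *Nfkbiz* was closest to *Centb2* (r = 0.96), *Svil* and *Usp46*. *Nfkbie* had the lowest leading value, with *4930519N13Rik* (r = 0.95), *Ifi204* and *Il13ra1*.

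Of 8 genes for NF-κB subunits and the IκB kinase, 7 were tested (all but *Rel*). *Relb*, whose product forms dimers of the alternative pathway, was the only one called for TNFα (1.12% of all tested probes were called higher), at 3.12, 2.90 and 3.13 before and 4.01, 3.88 and 4.02 after (1.89-fold, adjusted p = 2.05e-04). That call was lost without wt replicate 2 at 0 h (0.85 on the log2 scale, under a fold of 1.8) and with normexp (adjusted p = 0.594). It was also the only one called in wt over pTV, where pTV was at 2.58, 2.49 and 2.65 (2.64-fold, adjusted p = 8.57e-07), against 3.59% of all tested probes. The median log2 fold change of the 7 was 0.52 for TNFα and 0.35 in wt over pTV, as against −0.04 and −0.03 over all tested probes. Against wt, 0 of the 7 were called in KTR (1 at an unadjusted p under 0.05, which 9.19% of all tested probes passed) and 0 in K314/315R (also 0, against 17.4%). Over pTV, *Relb* was called in KTR (2.28-fold) and in K314/315R (2.56-fold). *Nfkb2*, named here after its value was seen, was called only in K314/315R over pTV (2.08-fold, adjusted p = 1.26e-04), and not without K314/315R replicate 2 (0.88 on the log2 scale) or pTV replicate 1 (0.96), with quantile normalization (0.98) or with normexp (adjusted p = 0.113). By the adjusted p alone *Nfkb2* was also higher in wt over pTV (1.91-fold, adjusted p = 1.29e-04), in KTR over pTV (1.73-fold, 5.36e-04) and after TNFα (1.71-fold, 0.00234). *Nfkb1* likewise passed the adjusted p in wt over pTV (1.94-fold, 8.39e-06), in KTR over pTV (1.98-fold, 8.91e-06) and after TNFα (1.5-fold, 0.0021). *Ikbkg* was lower after TNFα (0.76-fold, adjusted p = 0.0208).

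Among 18 further inhibitors and turnover factors of the pathway, 17 were tested (all but *Nfkbid*). TNFα raised *Traf1*, an adaptor of TNF receptors, *Birc3*, a ubiquitin ligase of the TNF receptor complex, and *Tnip3*, which encodes another A20-binding protein, and 0 were called lower. These were 3 of 17, where 1.12% of all tested probes were called higher and 0.424% lower, and the median log2 fold change of the 17 was 0.06. By the adjusted p alone *Pdlim2* was lower after TNFα (0.664-fold, adjusted p = 0.0406). *Traf1* rose from 2.25, 2.41 and 2.33 to 3.76, 3.92 and 3.92 (2.89-fold, adjusted p = 7.15e-06). *Birc3* rose from 2.17, 1.8 and 1.94 to 3.46, 3.18 and 3.17 (2.45-fold, adjusted p = 1.34e-04), while its dimmer probe was not called (log2 fold change 1.17, adjusted p = 0.0726). *Tnip3* rose from −3.72, −3.69 and −3.82 to −2.66, −2.77 and −2.66 (2.07-fold, adjusted p = 0.0194), a call that was lost without any 1 of these 6 arrays (adjusted p = 0.0566 to 0.0785) and with no filter on dim probes (0.058). With normexp *Traf1* (adjusted p = 0.157) and *Birc3* (0.224) were not called either.

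In wt over pTV, 3 of the 17 were called higher and 0 lower, against 3.59% and 1.46% of all tested probes, with a median log2 fold change of 0.13. They were *Birc3* (2.50-fold, adjusted p = 1.31e-05), *Zc3h12a*, which encodes an RNase that degrades inflammatory mRNAs (2.17-fold, adjusted p = 1.5e-04, or 0.0639 with normexp), and *Tnip3*. *Tnip3* was well above background on 0 of 3 pTV arrays, so its fitted log2 difference of 3.13 (adjusted p = 1.32e-06) is not exact. With each pTV array held at the smallest signal of any probe flagged well above background, the wt level was 4.18-fold higher. This is not a lower limit for *Tnip3*, since with normexp the log2 difference was 1.22 (adjusted p = 0.834). *Traf1* was 1.53-fold higher in wt than in pTV and not called. Untreated wt cells had less *Traf1* than TNFα-treated pTV cells (3.15, 3.22 and 3.38), with a log2 difference of −0.91 (adjusted p = 3.77e-05) that did not reach the limit of 2-fold.

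*Tnip3* was the only one of the 17 called in KTR over wt (0.14% of all tested probes were called lower). In K314/315R over wt 0 of the 17 were called, against 1.2% of all tested probes called either way. At an unadjusted p under 0.05 it was 1 of 17, against 17.4%. *Tnip3* was at −3.63, −4.24 and −4.80 in KTR, well above background on 1 of 3 arrays, and at −3.16 and −2.74 in K314/315R, on both. The fitted log2 difference was −1.53 from wt (adjusted p = 0.0142) and −1.27 from K314/315R (adjusted p = 0.017). Because KTR replicates 2 and 3 were not well above background, these differences are not exact. With the KTR arrays held at or above the smallest signal of any probe flagged well above background, wt was 2.39-fold and K314/315R 2.00-fold higher. As for *Nfkbie*, KTR replicate 3 was the lowest of the KTR arrays. The difference from wt was not called without any 1 of the wt arrays at 3 h (adjusted p = 0.0613 to 0.0823), without KTR replicate 2 (0.0557) or in the fit of only these groups (0.277), and that from K314/315R not without K314/315R replicate 2 (0.144), with slide as a random block (0.0676) or in the fit of only the mutants (0.177). The probe is dim, and with normexp no comparison of *Tnip3* was called (adjusted p = 0.65 in KTR over wt).

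**Figure D5:**
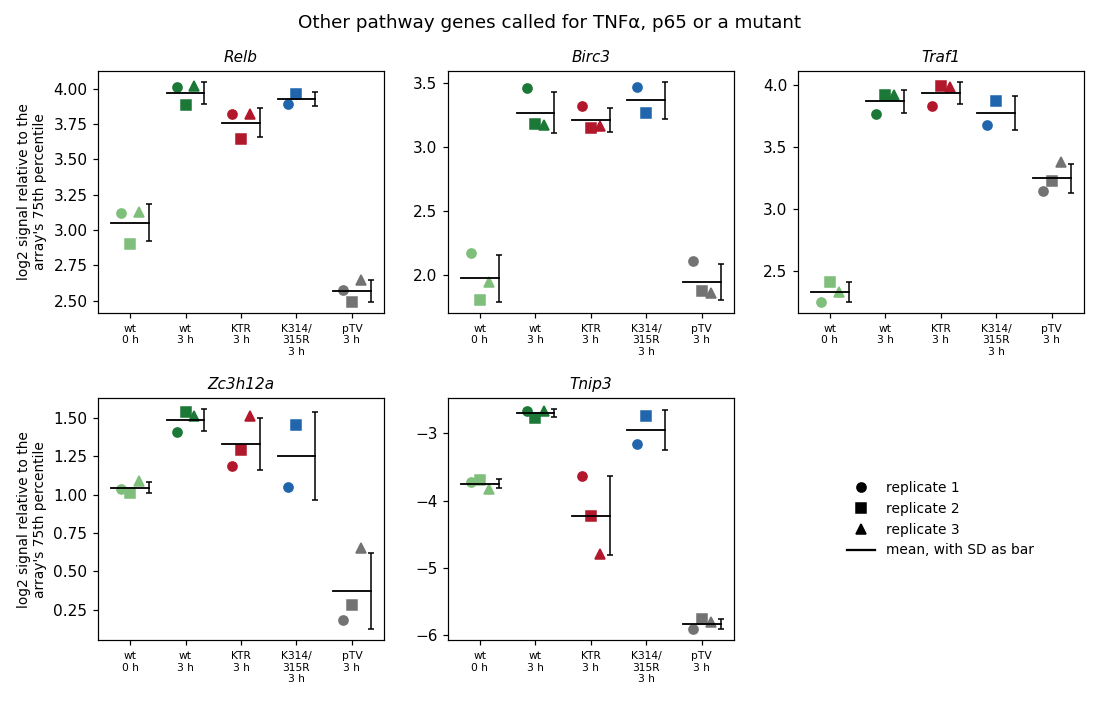
Log2 signal (y axis, relative to the array's 75th percentile, each panel with its own scale that does not start at 0) of 5 other pathway genes on each array of the 5 groups; symbols mark the replicate, lines the mean and bars the SD. *Relb*, *Birc3*, *Traf1* and *Zc3h12a* of the mutants lie near wt at 3 h, and *Tnip3* is lower in KTR (−4.80 to −3.63) than in wt at 3 h (−2.77 to −2.66).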

How the data were processed

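RNA of 14 cultures, isolated on different days, was hybridised to Agilent mouse arrays in 1 colour (Cy3). The authors deposited, per the file headers, Feature Extraction output (versions 9.1.1.1 and 9.1.3.1 for slide 4) with spot intensity corrected for background and not scaled between arrays, and a table of intensity multiplied by a single factor per array (0.837 to 1.20), used as an alternative. The paper names Rosetta Resolver, which was not repeated here.

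Groups were taken from the sample labels. Outlier spots (1 to 326 per array) were left out, spots of a probe averaged, and log2 intensity taken relative to the array's 75th percentile. The 22166 probes that passed the filter on dim probes were fitted together with limma 3.58.1 in R 4.3.3 (package data.table, version 1.17.8), without a block, and two-sided p-values were adjusted by Benjamini and Hochberg over the probes tested in each comparison (22161 to 22166). The fit was tested on simulated data. Values rest on few arrays, and their number limits the precision.

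Genes named are the 7 members, *Rela*, genes of 2 pathway lists called for TNFα, wt over pTV or a mutant over wt, and the 3 names that correlate best with each member. *Nfkb1*, *Nfkb2*, *Ikbkg*, *Pdlim2* and the cell-type markers were named after their values were seen. Members and lists were chosen with earlier results of these data known. The brightest tested probe stands for a gene. *Tnip3* was matched by accession (the array names it 9030611K07Rik). For *Tnip3*, a fold with dim arrays held at a floor sets the mean of the bright group against a value per dim array. That value is the probe's signal or, if higher, the smallest signal of any probe flagged well above background. This floor is not the detection limit of the probe itself.

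The replicate number, which is the slide for slides 1 to 3, pairs the arrays there. Deviations from group means correlated at 0.308 to 0.613 in the 18 same-number pairs and at −0.510 to 0.0935 in the 36 others. The 8 pairs of K314/315R with equal numbers had −0.101 to 0.409, and the 16 others −0.4145 to 0.4145. With only 2 K314/315R arrays the deviations are mirror images, so these values cannot decide whether slide 4 is paired. The alternatives were the replicate block, slide as a random block, normexp, quantile normalization, the authors' table, other filters and thresholds, other sets of arrays, and the mean of a gene's probes. Figures were drawn with matplotlib 3.10.9 in Python 3.11.15.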

Additional observations from a re-analysis of the deposited data

How the results depend on the processing

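Over 26 alternatives, 1398 of 1456 values of the 7 genes in the 8 comparisons kept their direction and their side of the threshold, 25 lost a call, 16 gained one and 17 changed sign. With the replicate block 0 of 56 calls changed, and 1 value changed sign (*Nfkbib* in K314/315R over wt, 7e-04, from −0.01). Normexp had the widest effect. It lowered the TNFα count from 4 to 1 and the KTR over wt count from 1 to 0. Over all tested probes, calls either way fell from 343 to 23 for TNFα and from 37 to 1 in KTR over wt. The KTR over wt count of the 7 genes was also 0 with a filter that asked for all 14 arrays above background, and in the fit of only the groups compared. With no fold limit, 7 genes were called in KTR over pTV (4 with it) and 5 in wt at 0 h over pTV (2 with it). Leaving out each array in turn gave 0 to 1 in KTR over wt (0 in 11 of 14 fits), 0 to 1 in KTR over K314/315R, 3 to 5 in KTR over pTV, and the same count as before in the other 5 comparisons.

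The values that changed sign were small differences that had not been called, except that of *Tnip3* in KTR over pTV, −0.18 under normexp. Also under normexp, *Nfkbiz* had −0.0747 for TNFα. In KTR over wt, *Nfkbib* had 0.18, *Tnip1* 0.20, *Bcl3* 0.16 and *Nfkbia* 0.13. *Nfkbib* had 0.23 in K314/315R over wt and 0.0906 in wt at 0 h over pTV, and *Tnfaip3* had 0.0069 in KTR over K314/315R. The authors' table gave 0.0202 for *Nfkbib* in K314/315R over wt. Without single arrays, *Tnfaip3* ranged from −0.06 to 0.17 and *Nfkbiz* from −0.0024 to 0.22 in KTR over wt, and *Nfkbib* from −0.0369 to 0.016 in K314/315R over wt and from −0.11 to 0.0364 in wt at 0 h over pTV. The cause was not tested. Testing all probes put the median over probes more than 0.1 from 0 in 6 comparisons, up to 0.27 in KTR over K314/315R, but left the values of the 7 genes as they were.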
